A study of Arabidopsis thaliana with 12 samples.

Results

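Chromatin immunoprecipitation with sequencing (ChIP-seq) peaks of REV were compared with those of ATHB8 at and around protein-coding genes of Arabidopsis thaliana. A peak was included when its summit lay inside a protein-coding gene or within 2000 bp of one on Chr1 to Chr5, which left 2346 REV peaks and 1416 ATHB8 peaks, 3762 of the 38038 nuclear peaks in the 6 lists of the series. The REV sample came from seedlings with a 2xYPet-3xHA-tagged copy of REV (REVg:2xYPet-3xHA). The ATHB8 sample came from seedlings with a copy of ATHB8 that carried this tag (ATHB8g:2xYPet-3xHA). Both were whole seedlings of the Ler ecotype at 10 days, grown in long days on agar, and both were precipitated with an antibody against GFP, which binds the YPet tag. Lists of PHB, PHV, ICU4 and TPL from lines tagged in the same way served for comparison, and each protein had 1 list. Whether the tagged copy replaced or joined the untagged one and whether each line was a single transformant are not stated in the sources used here.

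REV and ATHB8 belong to the HD-ZIPIII family (class III homeodomain leucine zippers), plant transcription factors with a DNA-binding homeodomain, a leucine zipper for pairing and a START domain, whose transcripts are cut under the guidance of microRNAs. REV (REVOLUTA) is known for upper-side leaf identity, meristem initiation and vascular patterning. ATHB8 is known from the procambium, the tissue from which veins form, and is the narrower of the pair in where it is expressed. PHB, PHV and ICU4 (also CORONA) complete the family in this plant, and TPL (TOPLESS) is a co-repressor recruited by DNA-bound factors.

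In REV, 2346 of 5814 nuclear peaks lay near a gene (40.4%, Wilson 95% interval 39.1% to 41.6%), and in ATHB8, 1416 of 4813 did (29.4%, 28.1% to 30.7%). Of these near-gene peaks, 67.4% of REV and 46.1% of ATHB8 had the summit inside the gene. REV peaks were 106.5 bp wide at the median and ATHB8 peaks 83 bp. The authors' fold enrichment of a peak, its ChIP signal over the local background, ran from 1.52 to 15.4 in REV (median 3.32) and from 1.63 to 5.56 in ATHB8 (median 3.00). It was compared only as a rank inside its own list. Where values of different lists are printed side by side for a site, they are not on a common scale. Read depth is unknown, there was no list from untagged plants, and with 1 list per protein no difference below has a replicate check or a test. The intervals cover counting error only.

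REV and ATHB8 met at a minority of the sites of each protein. Of the near-gene REV peaks, 442 of 2346 (18.8%, 17.3% to 20.5%) shared 1 bp or more with a near-gene ATHB8 peak, and of the near-gene ATHB8 peaks, 479 of 1416 (33.8%, 31.4% to 36.3%) shared 1 bp or more with a REV peak. The numbers of overlapping peaks were close, so the gap between the shares follows the unequal list lengths; with the REV list cut to its 1416 peaks of highest −log10 q, the shares were 25.8% for REV and 28.7% for ATHB8. Beyond 2000 bp from any gene the shares were higher, at 43.3% of 3468 REV peaks and 47.4% of 3397 ATHB8 peaks. On the 5 chromosomes the near-gene share ran from 16.0% to 21.3% for REV and from 30.8% to 39.1% for ATHB8.

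Within 2000 bp, the share inside genes was below that farthest out for REV and above it for ATHB8. Inside genes lay 1582 REV and 653 ATHB8 peaks, and 120 and 171 lay 1501 to 2000 bp away. Those that met the other protein were closer in number, with 237 REV and 264 ATHB8 inside genes and 44 and 48 farthest out. The shares thus divide numbers closer to each other by totals that differed at either distance. Why the directions were opposite was not tested. REV peaks with the summit inside a gene met ATHB8 in 15.0% of cases (13.3% to 16.8%), and those 1501 to 2000 bp away in 36.7% (28.6% to 45.6%). ATHB8 peaks inside a gene met REV in 40.4% of cases (36.7% to 44.2%), and those 1501 to 2000 bp away in 28.1% (21.9% to 35.2%). The ATHB8 share did not fall steadily, with 24.1% at 501 to 1000 bp and 29.8% at 1001 to 1500 bp. The inner and outer intervals of either protein do not overlap. Just past the 2000 bp limit, at 2001 to 2500 bp, the shares were 36.0% for REV and 37.3% for ATHB8, the second of which lies within the interval of ATHB8 peaks inside genes.

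**Figure D1:**
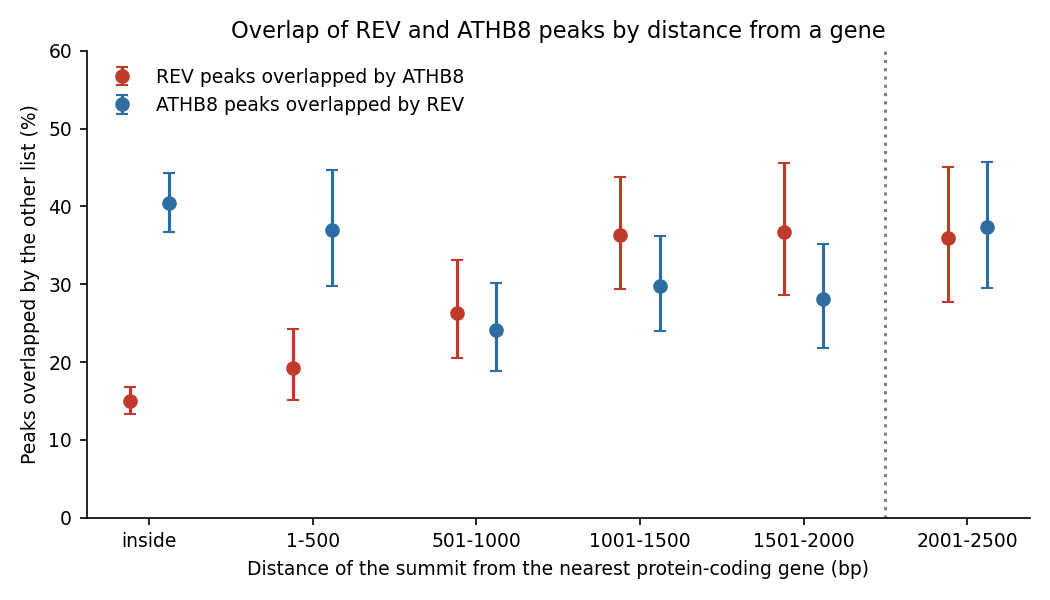
Share of REV peaks overlapped by any ATHB8 peak (red, left of each pair) and of ATHB8 peaks overlapped by any REV peak (blue), by distance of the summit from the nearest protein-coding gene in bp; bars are Wilson 95% intervals and the dotted line marks the 2000 bp limit. Inside genes the shares are 15.0% for REV and 40.4% for ATHB8, and from 501 bp outwards the intervals of the proteins overlap.

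Overlapping peaks were the stronger peaks of the REV list, and less so of the ATHB8 list. Overlapping REV peaks had a median fold enrichment of 3.96 and a median percentile of 77.5 among near-gene REV peaks, against 3.30 and 44.9 for REV peaks without ATHB8. Overlapping ATHB8 peaks had a median of 3.03 and a percentile of 55.5, against 2.92 and 47.2 for ATHB8 peaks without REV. Of the top 25% of REV peaks by fold enrichment 40.0% met ATHB8, against 10.9% of the lowest 25%. Of the top 25% of ATHB8 peaks 40.4% met REV, against 31.6% of the lowest 25%. Of the 50 highest peaks, 38 of REV (76.0%, 62.6% to 85.7%) and 27 of ATHB8 (54.0%, 40.4% to 67.0%) met the other protein. Overlapping peaks were also wider, at a median of 174 bp against 100 bp in REV and 106 bp against 73 bp in ATHB8, and the part of width in these shares was not tested.

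Ranks in the lists were weakly related. Over the 442 overlapping pairs, each REV peak with the ATHB8 peak of nearest summit, Spearman's rho of the fold enrichments was 0.16, a description over sites that share the same libraries. It was 0.28 over the 216 pairs in regions with all of PHB, PHV and ICU4 and 0.22 over the 115 with none. In 80 pairs both peaks stood in the top 25% of their list, in 152 only the REV peak did, in 60 only the ATHB8 peak did, and in 150 neither did. Pairs in regions with peaks of all of PHB, PHV and ICU4 (216 pairs) had a median percentile of 87.8 in REV and 53.7 in ATHB8. Pairs in regions with none of the other 3 (115 pairs) had 72.2 in REV and 68.0 in ATHB8. With 1 of them (55 pairs) the medians were 61.1 in REV and 71.6 in ATHB8, and with 2 (56 pairs) 51.2 in REV and 42.6 in ATHB8, so the percentiles followed no steady course with the number of other lists.

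**Figure D2:**
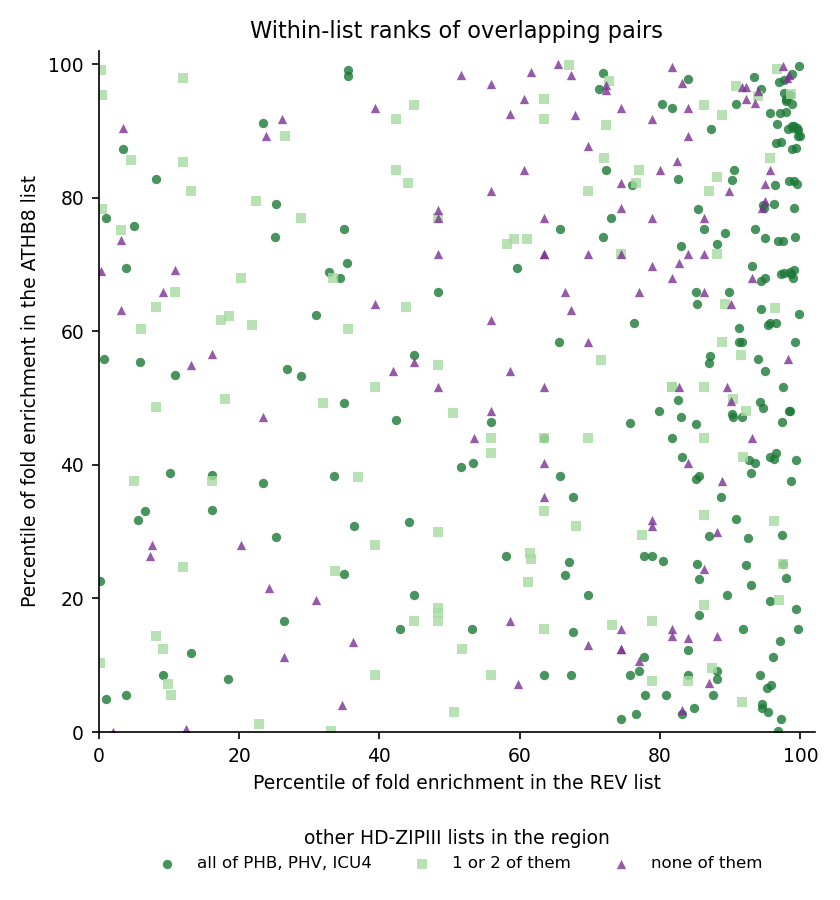
Percentile of fold enrichment within the REV list (x axis) and within the ATHB8 list (y axis) for the 442 overlapping pairs, marked by how many of the PHB, PHV and ICU4 lists also had a peak in the region. Pairs with all of them crowd at the right edge over a wide range of ATHB8 percentiles.

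The summits of overlapping peaks lay close together. The median distance was 37 bp (quartiles 12 and 78 bp, longest 789 bp), 97 pairs (21.9%) lay within 10 bp and 359 (81.2%) within 100 bp. The ATHB8 summit had the higher coordinate in 197 pairs, the lower one in 241 and the same in 4. Pairs without PHB, PHV or ICU4 had a median distance of 20 bp, and pairs with all of these 48 bp. Pairs whose REV summit lay inside a gene were 50 bp apart at the median, against 21 bp for those outside. Pairs whose REV peak was wider than the median of the pairs were 46 bp apart, against 24 bp for the narrower ones, so width moved with these distances, and its part was not tested.

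Neither protein stood nearer to ICU4 as a rule. In the 279 pairs where both peaks overlapped an ICU4 peak, REV summits were 68 bp and ATHB8 summits 83 bp from the ICU4 summit at the median, and the REV summit was the nearer one in 148 pairs and the ATHB8 summit in 130.

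**Figure D3:**
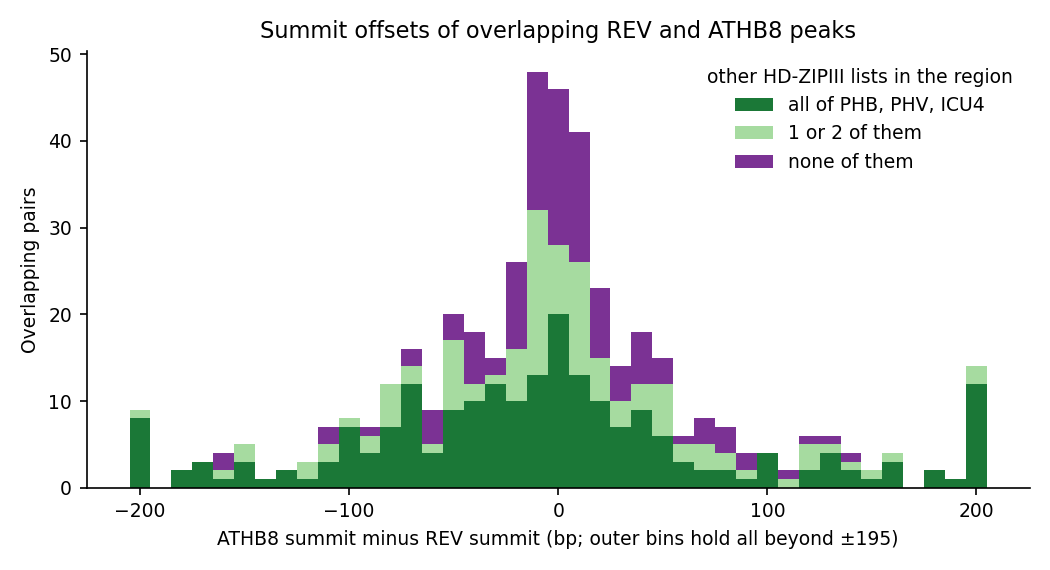
Number of overlapping pairs (y axis) by the ATHB8 summit minus the REV summit in bp (x axis, 10 bp bins, outermost bins hold all larger distances), stacked by how many of the PHB, PHV and ICU4 lists had a peak in the region. The pairs pile up around 0, with 97 of 442 within 10 bp, and the pairs without the other proteins lie closest to it.

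The sites of both, of REV alone and of ATHB8 alone differed in which other proteins were listed there. Overlapping peaks were merged into 427 regions of both, set beside 1904 REV peaks without ATHB8 and 937 ATHB8 peaks without REV. PHB peaks touched 58.3% of the regions of both (53.6% to 62.9%), 39.4% of the REV-only peaks and 11.3% of the ATHB8-only peaks. For PHV the shares were 59.5%, 34.4% and 12.2%. For ICU4 they were 63.5%, 64.4% and 13.8%, so the regions of both and the REV-only peaks lay within counting error for this protein. TPL touched 59.5% of the regions of both (54.8% to 64.0%), 72.3% of the REV-only peaks (70.3% to 74.3%) and 15.2% of the ATHB8-only peaks (13.0% to 17.6%).

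The regions of both are wider, with a median of 226 bp against 100 bp for REV-only and 73 bp for ATHB8-only peaks, and a wide region meets more peaks. Asking only whether the summit itself fell in the other protein's peak, which does not depend on the width of the REV or ATHB8 peak, PHB held 55.9% of the overlapping and 34.8% of the non-overlapping REV summits. It held 56.8% of the overlapping and 9.93% of the non-overlapping ATHB8 summits.

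The regions of both ranged from fully occupied by the family to bare. All of PHB, PHV and ICU4 were present in 204 of the 427 regions (47.8%), against 26.0% of the REV-only and 2.13% of the ATHB8-only peaks. Another 54 regions of both held 1 of these and 54 held 2. None of these was present in 115 regions of both (26.9%), 614 REV-only peaks (32.2%) and 699 ATHB8-only peaks (74.6%). TPL was listed in 196 of the 204 fully occupied regions of both (96.1%), in 38 of the 54 with 2, in 16 of the 54 with 1 and in 4 of the 115 bare ones (3.48%, 1.36% to 8.60%). Among REV-only peaks with none of PHB, PHV and ICU4, TPL was listed at 168 of 614 (27.4%). Place moved with this too. TPL touched 81.2% of the regions of both inside a gene (75.6% to 85.8%) and 35.5% of those outside (29.2% to 42.3%). For REV-only peaks the TPL shares were 77.2% inside (74.9% to 79.3%) and 60.6% outside (56.5% to 64.6%). The lower TPL share of the regions of both was thus seen outside genes and not inside them. Inside genes lay 52.5% of the regions of both and 70.6% of the REV-only peaks. Gene-poor surroundings, with fewer than 10 protein-coding genes within 50 kb to each side, held 10.8% of the regions of both, 4.25% of the REV-only and 12.7% of the ATHB8-only peaks, and TPL touched 2 of the 46 gene-poor regions of both.

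**Figure D4:**
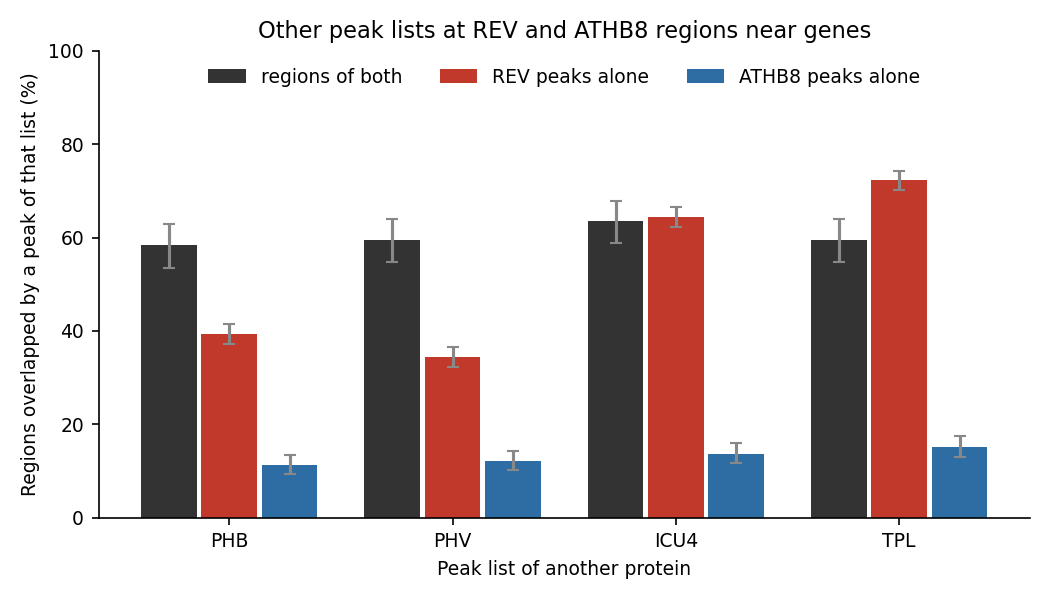
Share of regions overlapped by a peak of PHB, PHV, ICU4 or TPL (y axis, percent) for the 427 regions of both, the 1904 REV peaks without ATHB8 and the 937 ATHB8 peaks without REV; error bars are Wilson 95% intervals. ATHB8 peaks without REV stay at or below 15.2% for every list, and TPL is the list in which REV peaks without ATHB8 exceed the regions of both beyond the intervals.

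Each summit was given to its nearest protein-coding gene. REV peaks named 1582 genes (5.76% of the 27444 protein-coding genes) and ATHB8 peaks 958 (3.49%). Of these, 422 genes had peaks of both (1.54% of all genes, 26.7% of the REV genes and 44.1% of the ATHB8 genes), 1160 had REV and no ATHB8 (4.23%) and 536 had ATHB8 and no REV (1.95%). At 348 of the 422 the peaks overlapped, and at 74 they lay apart. These 422 genes were taken for having both peaks. The overlap shares of 18.8% of REV and 33.8% of ATHB8 peaks count all near-gene peaks and are no background for the 348. A TPL peak was nearest to 66.1% of the genes of both, 78.4% of the REV-only genes and 33.6% of the ATHB8-only genes, against 33.7% of all genes. Genes with a symbol in the gene table made up 46.0% of the genes of both, 46.9% of the REV-only genes and 33.6% of the ATHB8-only genes, against 37.8% of all genes.

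The site ranked highest in both lists together stood beside GT18 (AT5G62220), also named XLT2, a glycosyltransferase of the cell wall polysaccharide xyloglucan. The REV peak (chr5:24990481-24990877, TAIR10) had a fold enrichment of 10.3 and the ATHB8 peak (chr5:24990540-24990838) one of 5.04, with summits 14 bp apart outside the gene. The other 4 proteins were listed there too, with fold enrichments of 9.79 in PHB, 16.7 in PHV, 22.0 in ICU4 and 11.2 in TPL.

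TCH4, another xyloglucan-modifying enzyme and a touch-induced gene, had a REV peak of 7.56 and an ATHB8 peak of 4.67 inside the gene, with summits 123 bp apart. STZ (ZAT10), a zinc finger repressor of stress responses, had 6.23 in REV and 4.50 in ATHB8 with summits 36 bp apart. ARF2, an auxin response factor that represses transcription, had 7.13 in REV and 4.15 in ATHB8 with summits 12 bp apart (chr5:24910154-24910553 in REV and chr5:24910125-24910459 in ATHB8). AT5G21940 had 6.06 in REV and 4.47 in ATHB8, 14 bp apart. At TCH4, STZ, ARF2 and AT5G21940 the regions also held peaks of PHB, PHV, ICU4 and TPL.

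The remaining 5 of the 10 leading sites held few or none of the other proteins. AT1G33440, named NPF4.4 and placed in the NRT1/PTR transporter family by the gene table, had 6.18 in REV and 5.05 in ATHB8 inside the gene, on peaks with summits 2 bp apart (chr1:12127597-12127667 in REV and chr1:12127601-12127665 in ATHB8). AT2G25370 had 6.45 in REV and 4.54 in ATHB8 with summits on the same base. AT2G06425 had 6.86 in REV and 4.64 in ATHB8, 8 bp apart. No peak of PHB, PHV, ICU4 or TPL overlapped at these 3 genes. AT2G14395 (6.04 in REV and 4.85 in ATHB8) and AT2G01035 (7.37 in REV and 4.16 in ATHB8) had a PHV peak besides, of 3.00 and 3.36, and none of PHB, ICU4 or TPL.

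Among REV-only genes the highest peaks belonged to AT3G44713 (15.4) and AT2G14775 (15.4), at which no peak of the other 5 proteins overlapped. P5CR, the enzyme of the last step of proline synthesis, had a REV peak of 10.0 inside the gene, beside peaks of 3.29 in PHV, 3.24 in ICU4 and 2.37 in TPL. AT1G47845 followed with 8.09 and no other protein. MYB47, a MYB transcription factor, had 6 REV peaks of up to 7.81 with TPL at 5.96. THH1, a homologue of the membrane protein TOM3, had 7.31 in REV, 7.98 in PHB, 10.8 in PHV, 19.6 in ICU4 and 5.77 in TPL. An ATHB8 peak of 2.80 also overlapped this site, with its summit 48 bp from that of REV and nearest to the adjoining gene AT1G14540, so THH1 counts as REV-only by the nearest gene and not by the site.

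Among ATHB8-only genes the highest peaks stood at AT5G38040 (5.36), AT3G05410 (5.05), AT1G45215 (4.95), AT5G47970 (4.95), SWEET6 (4.74), of the SWEET sugar transporters, and AT2G01050 (4.74). No REV, PHB, PHV, ICU4 or TPL peak overlapped any of these 6 ATHB8 peaks, and 5 of the 6 lay outside the gene. Of the 6 REV-only sites above, 3 met at least 1 of the other lists.

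The pairs with the widest gap in rank toward REV stood at AT1G43760 (6.05 in REV and 1.73 in ATHB8, percentiles 96.8 and 0.14), AT4G35025 (6.16 in REV and 2.10 in ATHB8) and AGP20, an arabinogalactan protein (5.56 in REV and 2.14 in ATHB8). Toward ATHB8 the widest gaps were at AT1G54930 (2.09 in REV and 4.74 in ATHB8, percentiles 0.36 and 99.1), AT1G16670 (2.14 in REV and 4.15 in ATHB8) and AT5G30341 (2.45 in REV and 3.88 in ATHB8). The widest summit distances belonged to pairs with a long peak inside a gene. At PEN3, an ABC transporter of defence, the ATHB8 summit lay 789 bp above that of REV, inside a REV peak of 1200 bp. At HSPRO2, related to a nematode resistance gene of sugar beet, and at RAP2.4, an AP2/ERF transcription factor, the ATHB8 summit lay 575 bp and 438 bp below that of REV.

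Among the HD-ZIPIII genes themselves, each of the proteins had a peak at its own gene and the other did not. REV had 2 peaks inside REV (2.28 and 2.70, percentile 10.1 for the higher), where the other list with a peak was TPL. ATHB8 had 1 peak beside ATHB8 (chr4:15869198-15869449, 2.54, percentile 18.1), where again only TPL had another. These peaks of low rank lie at the gene whose tagged form that line carried, and binding there and an effect of the construct cannot be told apart. REV also had a peak beside PHB (3.32), next to peaks of PHB, PHV, ICU4 and TPL at that gene, and neither protein had one at PHV or ICU4. At TPL, REV had a peak of 3.34 that overlapped peaks of PHB, PHV, ICU4 and TPL, and ATHB8 had none. TPR2, a TPL relative, had overlapping peaks of 4.40 in REV and 2.63 in ATHB8, and TPR3 had REV alone (2.99).

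HD-ZIPII genes encode related factors that act in leaf polarity and shade growth. Of the 10 genes, 3 had both (background 1.54%), 3 had REV alone (background 4.23%) and 0 had ATHB8 alone (background 1.95%). HAT1 had 7.95 in REV and 3.46 in ATHB8 with summits 31 bp apart (chr4:9737989-9738292 in REV and chr4:9737995-9738287 in ATHB8). HAT2 had 6.04 in REV and 3.89 in ATHB8, 16 bp apart. HAT22 had 4.54 in REV and 3.31 in ATHB8, 7 bp apart. The other 4 proteins were listed at all 3 regions. HB-2, the shade-induced ATHB2, and HAT3 had REV peaks of 4.13 and 3.65 without ATHB8, and HB4 one of 3.51 at 1930 bp from the gene. An ATHB8 peak of 3.25 overlapped the HB4 peak, but its summit lay 2020 bp from the gene and so past the limit.

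For the auxin lists below, 1.54% of all genes had both, 4.23% REV alone and 1.95% ATHB8 alone. Of 11 GH3 genes, whose enzymes join auxin and other hormones to amino acids, 2 had both and 3 REV alone. DFL1 (GH3.6) had 8.93 in REV and 3.53 in ATHB8, 59 bp apart, and WES1 (GH3.5) had 6.36 in REV and 2.63 in ATHB8, 38 bp apart. The WES1 site thus stood at percentile 98.0 of REV and 23.1 of ATHB8. GH3.3 (4.27) and BRU6 (GH3.2, 3.30) had REV alone. Among auxin transport genes, the efflux carriers PIN7 (4.54 in REV and 3.20 in ATHB8 at their highest) and PIN3 (3.45 in REV and 2.92 in ATHB8) had both, the influx carrier LAX1 (3.04) had REV alone, and PIN4 (3.61) had ATHB8 alone. Of 28 auxin response factors and receptors, ARF2 had both, and TIR1 (5.91), AFB4 (4.27) and ARF19 (2.91) had REV alone. Of 29 Aux/IAA repressors, IAA2 had both (4.13 in REV and 3.14 in ATHB8 at their highest) and IAA16 REV alone (3.87). Of 14 auxin synthesis genes, YUC6 had REV alone (3.45) and TAR1 ATHB8 alone (3.41).

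Jasmonate signalling had 5 of 17 genes with both, 2 with REV alone and 0 with ATHB8 alone, against 1.54%, 4.23% and 1.95% of all genes. JAZ3, a repressor of the pathway, had 8.79 in REV and 3.73 in ATHB8, 25 bp apart (chr3:6119392-6119898 in REV and chr3:6119436-6119712 in ATHB8), and ICU4 reached 19.2 at that gene. MYC2, the factor that JAZ proteins hold back, had 5.36 in REV and 2.60 in ATHB8 at their highest. JAZ7 had 3.81 in REV and 3.21 in ATHB8 on separate peaks 584 bp apart, and JAZ1 and JAZ6 had overlapping peaks. JAZ5 (3.18) and TIFY7 (JAZ9, 3.05) had REV alone.

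In the lists of other hormones, shares are read beside the 1.54% of all genes with both, 4.23% with REV alone and 1.95% with ATHB8 alone. Gibberellin signalling had 0 of 17 genes with both, which is near the background, and 5 with REV alone, the DELLA repressors RGL1 (4.13), GAI (3.05), RGL3 (3.04) and RGL2 (2.72) and the receptor GID1B (3.96). Of 16 brassinosteroid genes, the receptor BRI1 had both, at percentile 95.9 in REV (5.71) and 7.06 in ATHB8 (2.31), and CPD (4.10), BAS1 (3.67) and ROT3 (2.92) had REV alone. Of 14 abscisic acid receptors PYL4 had both on separate peaks (2.95 in REV and 3.32 in ATHB8), PYL5 (3.24) and PYL6 (3.04) had REV alone and PYL10 (2.73) ATHB8 alone. Of 9 clade A phosphatases of that pathway, PP2CA (3.43) and HAI1 (2.91) had REV alone. Of 10 type-A cytokinin response regulators, ARR9 had REV alone (3.21) and RR3 (ARR8) ATHB8 alone (3.18).

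The photosynthesis list, which was named a control list, had the most shared members of any list. Of its 22 genes, 11 had both, 3 had REV alone and 2 had ATHB8 alone (1.54%, 4.23% and 1.95% of all genes). The counts of the other lists are to be read beside those of this control. The 11 shared members were light-harvesting genes. CAB2 had 6.31 in REV and 4.13 in ATHB8, LHCB2.3 had 5.77 in REV and 2.41 in ATHB8, and LHB1B2 had 5.63 in REV and 2.88 in ATHB8 on the peaks of nearest summit, all inside the gene. The same REV peaks also overlapped a higher ATHB8 peak farther off, of 3.61 at LHCB2.3 and 3.50 at LHB1B2. LHCB4.1 (3.73) and LHCA1 (3.32) had REV alone, and LHCA3 (3.60) and RBCS1A (2.66), of the Rubisco small subunit, had ATHB8 alone. RBCS3B, another gene of that subunit, had REV alone (2.64). The LHCB1 and LHCB2 genes are near-identical copies among which short reads may be divided, so a peak cannot be tied to 1 copy. ICU4 peaks were assigned to 18 of the 22 genes and TPL peaks to 20, against 22.0% and 33.7% of all genes.

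Of 20 vascular and xylem genes 0 had REV and 1 had ATHB8 (5.76% and 3.49% of all genes), BHLH32 (TMO5), a factor of early vascular cells, with 2.84 inside the gene. For the meristem, stomatal, clock and shade lists, 1.54% of all genes had both, 4.23% REV alone and 1.95% ATHB8 alone. Of 18 meristem and boundary genes 3 had REV and 3 had ATHB8, and 1 of them had both. RPL (BLH9), a homeodomain factor of stem and inflorescence growth, was the gene with both, on 2 overlapping sites (up to 4.81 in REV and 4.04 in ATHB8). At 1 of its sites (chr5:394039-394273 in REV and chr5:394020-394268 in ATHB8) the summits were 6 bp apart. KNAT6 (3.24) and CLV1 (2.73) had REV alone, and KNAT1 (3.25) and CLV2 (2.69) ATHB8 alone. Of 13 stomatal lineage genes BASL (3.72), EPF2 (3.68) and TMM (2.77) had REV alone and MUTE (2.14, percentile 3.00) ATHB8 alone. The 15 clock genes gave PRR9 on separate peaks (3.31 in REV and 3.19 in ATHB8), and PIL6 (PIF5, 4.65) and PAR1 (2.80) of 13 shade genes had REV alone. The lists of KANADI, YABBY and other polarity genes (14), ZPR little zippers (3), CIN-type TCP factors (8) and AGO and miRNA pathway genes (9) had 0 in any class, against 5.76% of all genes with REV and 3.49% with ATHB8.

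**Figure D5:**
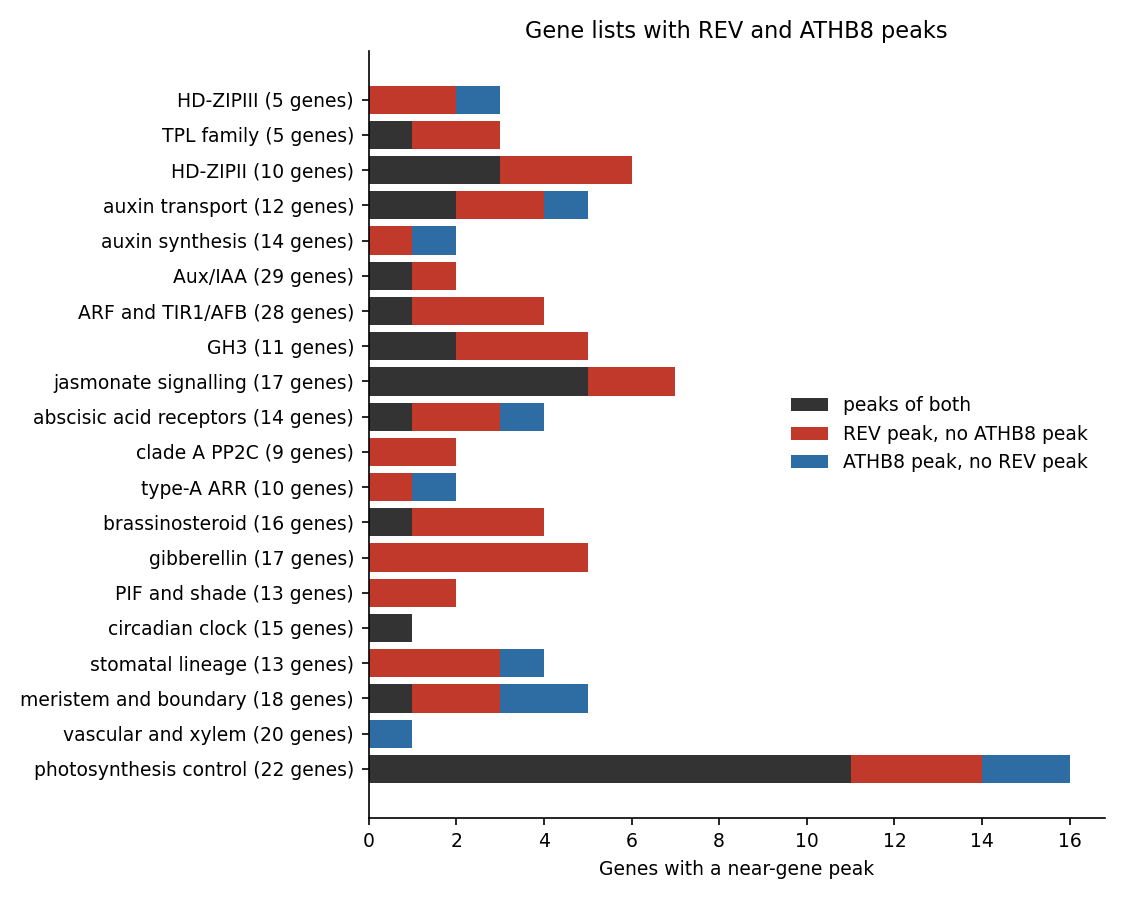
Number of genes (x axis) with a near-gene peak in each gene list, split into genes with peaks of both, with REV and no ATHB8, and with ATHB8 and no REV; lists with no such gene are left out. The photosynthesis control list leads with 11 of 22 in both, jasmonate signalling has 5 of 17, and gibberellin genes have 5 of 17 with REV alone.

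Over all lists, 30 of 329 distinct genes had both, 42 REV alone and 11 ATHB8 alone, against 1.54%, 4.23% and 1.95% of all genes. Beyond the lists, words in the gene table's names sorted genes into broad kinds, although only 38.2% of genes have a descriptive name. Transcription factors by these words made up 27 of the 422 genes of both (6.40%, 4.43% to 9.15%), 49 of the 1160 REV-only genes (4.22%) and 13 of the 536 ATHB8-only genes (2.43%), against 2.40% of all genes. Genes of hormones other than auxin made up 9 of the genes of both (2.13%), 18 of the REV-only (1.55%) and 1 of the ATHB8-only genes (0.187%), against 0.605% of all genes. F-box and ubiquitin genes made up 9 of the genes of both (2.13%), 9 of the REV-only (0.776%) and 3 of the ATHB8-only genes (0.560%), against 0.718%. Ribosome and translation genes made up 0 of the genes of both, 4 of the REV-only and 1 of the ATHB8-only genes, against 0.474% of all genes, a share that lies within the interval of the 0 (up to 0.902%).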

How the data were processed

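Per the submitters' processing notes, Bowtie2 and MACS2 were used on TAIR10, with no version named. Each sample's deposited list holds a linear fold enrichment (a ratio), p- and q-values as −log10, and a pileup, a coverage signal at the summit, per the file headers; the authors made all of these, and lengths and positions in bp. The series text speaks of duplicates, and no source used here says whether they were pooled. Of 12 samples, the 6 inputs were not used here. Genes came from the RefSeq table of TAIR10.1 (27444 protein-coding genes on Chr1 to Chr5), which has no strand, exons or sequence, so upstream and downstream were not separated, no sequence is shown and the planned motif search was not run.

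Each summit went to its nearest protein-coding gene within 2000 bp, with ties inside overlapping genes settled by the nearer midpoint. Overlap meant 1 bp or more. Percentiles were taken within a list's near-gene peaks, and tied values shared a rank (81.2% of REV and 76.7% of ATHB8 peaks had a tie). Another list was called present when its peak overlapped the region anywhere. Shares have Wilson 95% intervals. Counts of other proteins at a gene use that gene's own nearest peaks. Gene lists (332 of 333 memberships matched) and the comparison itself were chosen with earlier results of these data known, so list counts support nothing by themselves and are read beside the share of all genes.

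Named genes were the HD-ZIPIII genes and TPL, the 10 overlapping sites with the best mean percentile, the 6 highest genes of either protein alone, 3 pairs with the widest gaps in rank each way and in summit distance, and up to 3 shared, 2 REV-only and 2 ATHB8-only genes a list, with others named where a count was 5 or less. Python 3.11.15, pandas 2.3.3, numpy 2.4.6 and scipy 1.17.1 were used, and the overlap and annotation steps were checked on simulated peaks. With 1 list per protein there was no test between conditions. The alternatives were other overlap rules, stronger peaks, equal list lengths, other distances, all nuclear peaks of the other list, every gene in reach, ranks by −log10 q, and the removal of peaks near tRNA genes, in gene-poor surroundings or at genes with 5 or more peaks of a list, the last chosen after seeing the data. Some items are not reported here.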

Additional observations from a re-analysis of the deposited data

How the results depend on the processing

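Depth is unknown and each protein has 1 list, so leaving out replicates was not an option. No paired analysis was possible because the lists carry 1 sample per protein and no test was made. Over 9 results and 12 alternatives, 52 values stayed within the interval of the reported value, or within 1.5 times for a count of genes, 36 moved beyond it and 0 changed sign. A change of sign was possible only for the gaps in median percentile, since shares, distances and counts cannot be negative. Gene counts do not use the overlap rule and stayed as they were under other overlap rules. The planned motif search was not run.

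With overlaps that span at least 50% of each peak, the shares were 8.78% for REV and 14.5% for ATHB8, the summit distance 27 bp, the gap in median percentile between overlapping and other peaks 26.1 for REV and 20.9 for ATHB8, and the share of regions of both with TPL 46.6%. With summits within 100 bp in place of overlap, the shares were 15.5% for REV and 25.6% for ATHB8, the distance 24.5 bp and the REV gap 26.1. This rule limits every distance to 100 bp by construction. With lists of equal length, the shares were 25.8% for REV and 28.7% for ATHB8, and 653 genes had REV alone. In the stronger part of each list, 30.3% of ATHB8 peaks met REV, and 232 genes had both, 629 REV alone and 333 ATHB8 alone, from fewer peaks by construction.

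Within 500 bp of a gene, the shares were 15.6% for REV and 39.5% for ATHB8, the distance 47 bp, and TPL touched 76.6% of the regions, with 275 genes in both and 325 with ATHB8 alone. With summits inside genes only, the shares were 14.9% for REV and 39.8% for ATHB8, the distance 50 bp, the REV gap 36.9 and the TPL share 81.1%, with 222 genes in both and 259 with ATHB8 alone. Counting every gene within 2000 bp gave 694 genes with both, 1983 with REV alone and 811 with ATHB8 alone. Ranks by −log10 q gave a REV gap of 38.6. TPL touched 66.1% of the regions outside gene-poor surroundings and 64.9% without genes holding 5 or more peaks of a list (chosen after seeing the data). What caused these shifts was not tested.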

Other observations

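The following genes and families were picked after their values were seen and are given as values only. Of 71 WRKY transcription factor genes, 8 had peaks of both proteins (11.3%, against 1.54% of all protein-coding genes). Another 7 had REV alone (4.23% of all genes) and 2 ATHB8 alone (1.95% of all genes). The peaks overlapped at 5 of the 8, against 348 of the 422 genes with both. At WRKY40 the fold enrichment was 5.59 in REV and 3.11 in ATHB8 with summits 8 bp apart, and at WRKY48 it was 7.06 in REV and 2.94 in ATHB8, 101 bp apart. Of 17 genes named early responsive to dehydration (ERD), 6 had overlapping peaks of both and 1 had REV alone. Of all genes, 1.54% had both, overlapping or not, and 4.23% REV alone. The dehydrin gene ERD10 had 4.88 in REV and 3.11 in ATHB8, 12 bp apart, and its neighbour COR47 had 4.44 in REV and 3.06 in ATHB8, 3 bp apart. ERD5, which encodes a proline-degrading enzyme, had 4.13 in REV and 3.00 in ATHB8, and P5CS1, of the first steps of proline synthesis, had 4.94 in REV and 2.88 in ATHB8, 9 bp apart. Of 6 CYP94 genes, a P450 family of which members break down the jasmonate hormone, 3 had both and 1 had ATHB8 alone (background 1.54% and 1.95%). The peaks overlapped at 1 of the 3, CYP94B3, with 5.32 in REV and 4.32 in ATHB8. Among 5 BT genes, BT2 (4.95 in REV and 2.66 in ATHB8) and BT5 (2.28 in REV and 3.04 in ATHB8) had both. Another 1 had REV alone (background 1.54% for both and 4.23% for REV alone).

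Some genes held rows of peaks. AT2G14395, in gene-poor surroundings, had 12 REV and 11 ATHB8 peaks, the most of any gene. AT5G28235, also gene-poor, had 1 REV and 14 ATHB8 peaks. ASN1, which makes asparagine and is induced in the dark, had 8 REV and 6 ATHB8 peaks, and the dark-induced DIN10 had 5 REV and 6 ATHB8 peaks. In all, 28 genes held 5 or more REV peaks and 23 held 5 or more ATHB8 peaks, and these took 175 of the 2346 REV and 160 of the 1416 ATHB8 peaks.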
